A study of Mus musculus with 14 samples.

Results

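The treatment effect described here is a single estimate over both hosts of the study, ACSS2i against vehicle with the host as a block. It used all 14 of the 14 tumour libraries of the series, 7 treated and 7 control. The model takes the effect as common to the hosts and does not show that it is. ACSS2i stands for an inhibitor of ACSS2, and the series title places the work in triple negative breast cancer. The hosts are written as NGS and C57BI6 in the labels, and each treatment was present in both, with 3 vehicle and 3 ACSS2i libraries in NGS and 4 of each in C57BI6. It is unclear which strain NGS stands for. For the immune status of the hosts, their age, the tumour cell line, the dose and the treatment time, the sources used here state nothing. The libraries were made from polyadenylated RNA of pulverised bulk tumour and read the 3' ends of transcripts. The design line of the series names a Bmal1 status that no label assigns to a library, so it was not used. Nothing in the labels says that replicates were separate animals, so the p-values measure the spread between these samples, which may be technical.

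ACSS2 joins acetate to coenzyme A in the cytosol and nucleus and so supplies acetyl-CoA for lipid synthesis and for the acetylation of histones. Interferons are secreted signals that act through receptors and the kinases of the JAK family on transcription factors. These factors bind a repeated GAAA element in the promoters of target genes, whose products restrict viruses, load peptides onto MHC class I molecules and attract lymphocytes. Genes of this response are made by tumour cells, stromal cells and leukocytes alike. In bulk tissue, fewer cells of a type and less RNA per cell cannot be told apart.

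Depth followed the host, with 2.85 to 4.7 M counts per library in NGS and 17.6 to 20.3 M in C57BI6, so host and depth cannot be told apart. The first principal component of log2 CPM held 60.5% of the variance and separated the hosts, and NGS ACSS2i 2 stood apart on the second (-114.8, others -37.67 to 55.58). Markers of skeletal muscle were high in 4 libraries and those of skin in 2, and the results without them are given after the cell type markers.

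Over both hosts, 214 of 17294 tested genes were higher with ACSS2i (1.24%) and 39 were lower (0.226%), at an adjusted p under 0.05 in the edgeR quasi-likelihood test with Benjamini-Hochberg adjustment. The genes that rose with the smallest p included interferon-stimulated genes, surface proteins of leukocytes and the chemokine Ccl5, with Irf7, Mx1, Ly6c2 and Ms4a4c among them. The genes that fell included the haem-degrading enzyme Hmox1, the inositol transporter Slc5a3 and the metalloproteinase inhibitor Timp3. The median difference of the genes that rose was 0.88 on the log2 scale and that of the genes that fell was -0.48, and 92 and 7 genes respectively moved by 2-fold or more. In all, 253 genes passed (1.46%). Levels are given as CPM, which relates counts to the TMM-scaled library total. Over all tested genes the median difference was -0.01, and 8222 of the 17294 estimates were positive.

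The start regions of several genes that rose held the element that interferon-activated factors bind, and 5 such promoters are shown, followed by the promoter of Ms4a4c, the gene with the smallest p, which held no match. Each runs from 250 bases before to 50 bases after the transcript start, 5′ to 3′ on the gene's own strand, from RefSeq on GRCm38.p6. Capitals mark matches to the motif searched on both strands, GAAA followed by any 2 bases and a second GAAA (TTTC, any 2 bases, TTTC on the other strand). The regions are chr9:45078933-45079232 on the plus strand for Jaml, an adhesion molecule of leukocytes, and chr19:34599378-34599677 on the minus strand for Ifit1bl1, a relative of the IFIT RNA-binding proteins. They are chr1:171018676-171018975 on the plus strand for Fcgr4, an antibody receptor of myeloid cells, and chr3:142620413-142620712 on the plus strand for Gbp2, an interferon-induced GTPase. Those of Cxcl10, a chemokine for T cells, and of Ms4a4c are chr5:92348840-92349139 on the minus strand and chr19:11407411-11407710 on the plus strand.
Jaml: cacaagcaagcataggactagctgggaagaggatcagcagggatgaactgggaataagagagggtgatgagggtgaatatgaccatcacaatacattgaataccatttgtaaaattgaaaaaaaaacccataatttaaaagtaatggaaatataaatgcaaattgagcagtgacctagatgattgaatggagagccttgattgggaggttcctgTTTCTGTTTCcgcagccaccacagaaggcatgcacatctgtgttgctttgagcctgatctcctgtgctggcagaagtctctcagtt
Ifit1bl1: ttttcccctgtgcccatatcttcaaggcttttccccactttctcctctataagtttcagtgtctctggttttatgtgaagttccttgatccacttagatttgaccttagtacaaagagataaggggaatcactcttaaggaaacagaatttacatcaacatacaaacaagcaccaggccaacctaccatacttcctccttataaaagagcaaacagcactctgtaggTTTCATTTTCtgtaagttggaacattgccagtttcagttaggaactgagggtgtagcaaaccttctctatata
Fcgr4: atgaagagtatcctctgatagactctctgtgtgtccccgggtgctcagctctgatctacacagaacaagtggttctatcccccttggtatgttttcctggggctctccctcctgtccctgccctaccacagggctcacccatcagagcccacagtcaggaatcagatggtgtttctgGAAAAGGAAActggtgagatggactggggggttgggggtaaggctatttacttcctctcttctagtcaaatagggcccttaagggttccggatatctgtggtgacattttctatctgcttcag
Gbp2: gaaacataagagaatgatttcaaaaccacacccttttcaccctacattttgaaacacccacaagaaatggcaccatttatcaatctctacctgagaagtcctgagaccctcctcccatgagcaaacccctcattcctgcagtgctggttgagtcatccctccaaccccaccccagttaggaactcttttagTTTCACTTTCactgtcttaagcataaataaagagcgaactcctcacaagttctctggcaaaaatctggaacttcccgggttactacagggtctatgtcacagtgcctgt
Cxcl10: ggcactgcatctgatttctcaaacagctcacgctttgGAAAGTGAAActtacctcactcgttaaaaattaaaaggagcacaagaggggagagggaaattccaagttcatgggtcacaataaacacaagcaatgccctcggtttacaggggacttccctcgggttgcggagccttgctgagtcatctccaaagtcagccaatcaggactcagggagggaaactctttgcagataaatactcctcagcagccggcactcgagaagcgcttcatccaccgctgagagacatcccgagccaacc
Ms4a4c: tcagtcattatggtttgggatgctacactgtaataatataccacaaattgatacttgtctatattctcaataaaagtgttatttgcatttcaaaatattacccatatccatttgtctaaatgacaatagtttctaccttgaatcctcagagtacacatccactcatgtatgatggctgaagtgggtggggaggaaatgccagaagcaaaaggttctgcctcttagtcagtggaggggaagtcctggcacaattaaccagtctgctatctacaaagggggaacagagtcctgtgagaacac

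Counted from the transcript start, the match began at -36 in Jaml, -23 in the Ifit1bl1 promoter shown, -73 in Fcgr4, -59 in Gbp2 and -213 in Cxcl10. A second promoter of Ifit1bl1, at chr19:34601919-34602218, held a match that began at -104. Among the 214 genes that rose, 163 had a RefSeq promoter, and 40 of those (24.5%) held a match in at least 1 promoter. Among all tested genes, 447 of the 11493 with a promoter did (3.89%), and of the 39 genes that fell, 0 of the 27 with a promoter did. Counted by promoter, 44 of 202 of the genes that rose (21.8%) and 468 of 14589 of all tested genes (3.21%) held a match. The letters ACGTG, the core bound by hypoxia-inducible and by clock factors, were in the promoters of 20 of the 163 genes that rose (12.3%), 4 of the 27 that fell (14.8%) and 28.1% of all tested genes. A match describes the letters in this window and shows no binding.

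The 2 genes with the smallest p were both surface proteins of monocytes and other leukocytes. Ms4a4c, a membrane-spanning protein at chr19:11404770-11427246 (mm10, GENCODE M21), stood at 4.65, 8.30 and 5.70 CPM in NGS vehicle and at 28.9, 23.1 and 41.0 CPM in NGS ACSS2i. In C57BI6 it stood at 9.61, 6.99, 8.75 and 8.81 CPM in vehicle and at 27.4, 43.0, 34.7 and 25.8 CPM in ACSS2i. Every treated library lay above every control library, across both hosts. Ms4a4c rose by 2.08 ± 0.17 (SE) on the log2 scale, with an edgeR adjusted p of 3.3e-05.

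Ly6c2 at chr15:75108158-75111970 encodes a Ly-6C antigen carried at high density by inflammatory monocytes. It stood at 6.27, 3.14 and 2.51 CPM in NGS vehicle against 14.2, 56.3 and 41.2 CPM in NGS ACSS2i, and at 6.14, 3.75, 5.89 and 4.29 CPM in C57BI6 vehicle against 39.2, 60.6, 45.7 and 35.2 CPM in C57BI6 ACSS2i. The lowest treated library, NGS ACSS2i 1, was still above the highest control. The pooled difference was 3.18 ± 0.27 on the log2 scale, with an edgeR adjusted p of 3.3e-05. Within hosts it was 3.20 in NGS and 3.18 in C57BI6.

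Jaml was the third by p and stood higher in NGS than in C57BI6 under both treatments. Its levels were 22.5, 31.0 and 37.4 CPM in NGS vehicle, 81.8, 98.2 and 88.4 CPM in NGS ACSS2i, 13.6, 8, 10.8 and 12.5 CPM in C57BI6 vehicle and 38.1, 54.3, 35.4 and 29.0 CPM in C57BI6 ACSS2i. The groups did not overlap within a host, while 2 of the treated C57BI6 libraries lay within the range of the NGS controls. The rise was 1.70 ± 0.16 on the log2 scale (edgeR adjusted p = 6.72e-05), and without the host term in the model this call was lost, at an adjusted p of 0.156. P2ry14, a receptor for nucleotide sugars, rose by 1.56 ± 0.18, and the membrane-spanning Ms4a6b rose by 0.75 ± 0.09.

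**Figure D1:**
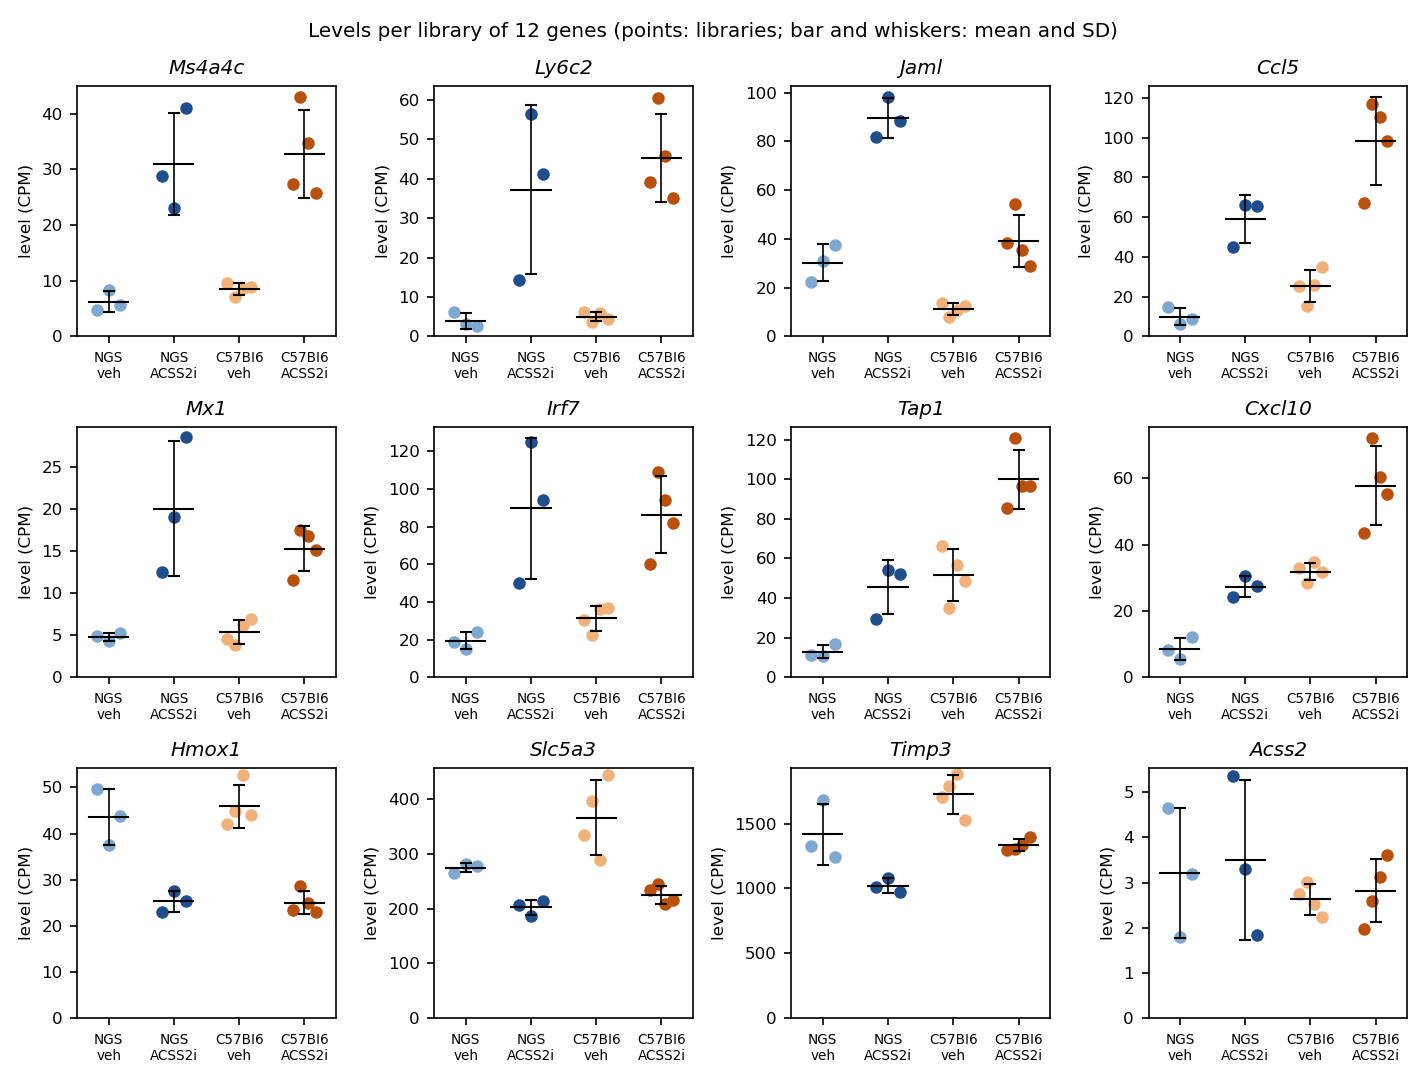
Levels in CPM (y axis, from 0) of 12 genes in each of the 14 libraries, by host and treatment (x axis); points are libraries, the horizontal bar is the group mean and whiskers are the SD. Ms4a4c and Ly6c2 lie higher in all treated libraries of both hosts, Hmox1, Slc5a3 and Timp3 lie lower within each host, and the groups of Acss2 overlap.

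Most tested genes of the type I interferon response rose, 30 of 39. Mx1, an antiviral GTPase at chr16:97447035-97462907, stood at 4.86, 4.26 and 5.24 CPM in NGS vehicle and 12.6, 19.1 and 28.5 CPM in NGS ACSS2i, and at 4.58, 3.80, 6.23 and 6.88 CPM in C57BI6 vehicle and 11.6, 17.6, 16.8 and 15.2 CPM in C57BI6 ACSS2i. No treated library overlapped a control, and the rise was 1.71 ± 0.20 on the log2 scale (edgeR adjusted p = 0.000367). Ifit1bl1 rose by 2.48 ± 0.26, from 2.14 ± 0.78 (SD, n = 3) to 11.9 ± 6.41 CPM in NGS and from 1.37 ± 0.45 to 7.75 ± 1.39 CPM (n = 4) in C57BI6. Oasl1, a relative of the oligoadenylate synthetases, rose by 1.53 ± 0.19, and Samhd1, which breaks down deoxynucleotides, rose by 0.82 ± 0.10. Slfn1, Trim30c, Ifi209 and Sp100, each from a family of interferon-induced proteins, rose by 1.88 ± 0.19, 2.07 ± 0.22, 1.38 ± 0.15 and 1.04 ± 0.13.

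Irf7, which drives the amplification of type I interferon production, stood at 18.8, 15.3 and 24.2 CPM in NGS vehicle against 50, 124.9 and 94.1 CPM in NGS ACSS2i. In C57BI6 it stood at 30.6, 22.4, 36.2 and 36.7 CPM against 60.3, 108.8, 94.4 and 82.2 CPM. No treated library overlapped a control, and the rise was 1.75 ± 0.21 on the log2 scale (edgeR adjusted p = 0.000625). Stat2 rose by 0.78 ± 0.11, while Irf9, its DNA-binding partner, differed by 0.40 ± 0.11 and did not pass (edgeR adjusted p = 0.0989).

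Of a list of 40 type I interferon genes, 39 were tested, and 30 rose while 0 fell, where 1.24% of all tested genes rose. Their median difference was 0.89 on the log2 scale against -0.01 over all tested genes. Of the 39 estimates, 38 were positive, against 8222 of 17294 over all tested genes. The members that rose ran from Xaf1 and Herc6, at 0.55 and 0.75, to Oas1g at 2.06 and Ifit1bl1 at 2.48. Mx2, Ifit3 and Ddx58, with estimates of 1.01, 0.84 and 0.60, did not pass, and Ifi27 was the member with a negative estimate (-0.12). The summed level of the list was 1106 to 1251 CPM in NGS vehicle and 1878 to 3135 CPM in NGS ACSS2i, and 1608 to 2103 CPM in C57BI6 vehicle and 2459 to 3241 CPM in C57BI6 ACSS2i, with no overlap within a host.

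A list of 28 genes of the response to interferon gamma, a cytokine made mostly by lymphocytes, had 26 tested members. Of these, 14 rose (53.8%, against 1.24% of all tested genes) and 0 fell. The median was 1.03 on the log2 scale. Fcgr4 rose by 1.40 ± 0.21, from 5.97 ± 1.37 to 18.5 ± 9.15 CPM in NGS and from 18.8 ± 5.8 to 45.6 ± 7.91 CPM in C57BI6. The interferon-induced GTPases Gbp2, Gbp5, Gbp7, Gbp3, Ifi47 and Igtp rose by 1.02, 1.30, 0.98, 1.11, 1.04 and 1.26. The checkpoint ligand gene Cd274 and the class II regulator Ciita did not pass, with estimates of 0.25 and 0.01. Their summed level was 339.3 to 398.4 CPM in NGS vehicle, 600.1 to 804.2 CPM in NGS ACSS2i, 577.2 to 1183 CPM in C57BI6 vehicle and 1277 to 1843 CPM in C57BI6 ACSS2i, again with no overlap within a host.

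Among chemokines, attractants of leukocytes, 3 of 20 tested members rose (15%) and 1 fell (5%), with a list median of 0.21. Of all tested genes, 1.24% rose and 0.226% fell. Ccl5, which attracts T cells and monocytes, stood at 14.6, 6.06 and 8.89 CPM in NGS vehicle against 44.9, 65.9 and 65.6 CPM in NGS ACSS2i, and at 25.1, 15.1, 25.8 and 34.7 CPM in C57BI6 vehicle against 66.9, 116.6, 110.4 and 98.4 CPM in C57BI6 ACSS2i. Every treated library lay above every control, and the rise was 2.18 ± 0.22 on the log2 scale (edgeR adjusted p = 0.00013). Cxcl10, which was counted with the interferon gamma list, rose by 1.14 ± 0.17, with 8.30, 5.38 and 12.1 CPM against 24.1, 30.6 and 27.4 CPM in NGS and 33.0, 28.3, 34.6 and 31.6 CPM against 43.4, 72.1, 60.4 and 55.4 CPM in C57BI6. Ccl22 and Cxcl16 rose by 2.20 ± 0.44 and 0.44 ± 0.10, and Ccl22 lost its call without C57BI6 vehicle 2 or C57BI6 ACSS2i 2 and Cxcl16 in 9 of the 14 fits that left out a library. The neutrophil attractant Cxcl2 fell by 1.02 over both hosts, but its levels were 0.897 to 1.42 CPM in NGS vehicle and 1.15 to 1.61 CPM in NGS ACSS2i, against 31.9 to 43.2 CPM in C57BI6 vehicle and 11 to 26.7 CPM in C57BI6 ACSS2i. The Cxcl2 call was lost in 10 of the 14 fits that left out a library, and its estimate in the NGS libraries alone was 0.14.

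Antigen presentation by MHC class I displays peptides of the cell interior to CD8 T cells. Of its 23 listed genes, 8 rose (34.8%, against 1.24% of all tested genes) and 0 fell, with a median of 0.49. Tap1, a subunit of the peptide transporter into the endoplasmic reticulum, stood at 11.1, 10.8 and 16.9 CPM in NGS vehicle against 29.7, 54.4 and 52.0 CPM in NGS ACSS2i, and at 66.1, 35.1, 56.9 and 48.4 CPM in C57BI6 vehicle against 85.7, 120.8, 96.7 and 96.8 CPM in C57BI6 ACSS2i. The groups did not overlap within a host, and the rise was 1.27 ± 0.19 on the log2 scale (edgeR adjusted p = 0.00362). The class I heavy chains H2-K1, H2-D1, H2-Q6 and H2-Q7 rose by 1.19, 0.61, 1.33 and 1.42. For H2-Q6 the groups overlapped in NGS, where its estimate was 0.62 ± 0.95, and its call was lost with equal host weights and with a replicate block. The immunoproteasome subunits Psmb8 and Psmb9 rose by 0.90 and 0.97. The light chain gene B2m, with an estimate of 0.62, did not pass (edgeR adjusted p = 0.0523). Of the 12 class II genes, the protease Ctss and the peptide exchanger H2-DMa rose, by 0.69 ± 0.11 and 0.72 ± 0.15, and the call of H2-DMa was lost without any 1 of NGS vehicle 1, C57BI6 vehicle 2, C57BI6 vehicle 3 or C57BI6 ACSS2i 2. The invariant chain gene Cd74 and the class II chain gene H2-Aa, at 0.91 and 0.56, did not pass.

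**Figure D2:**
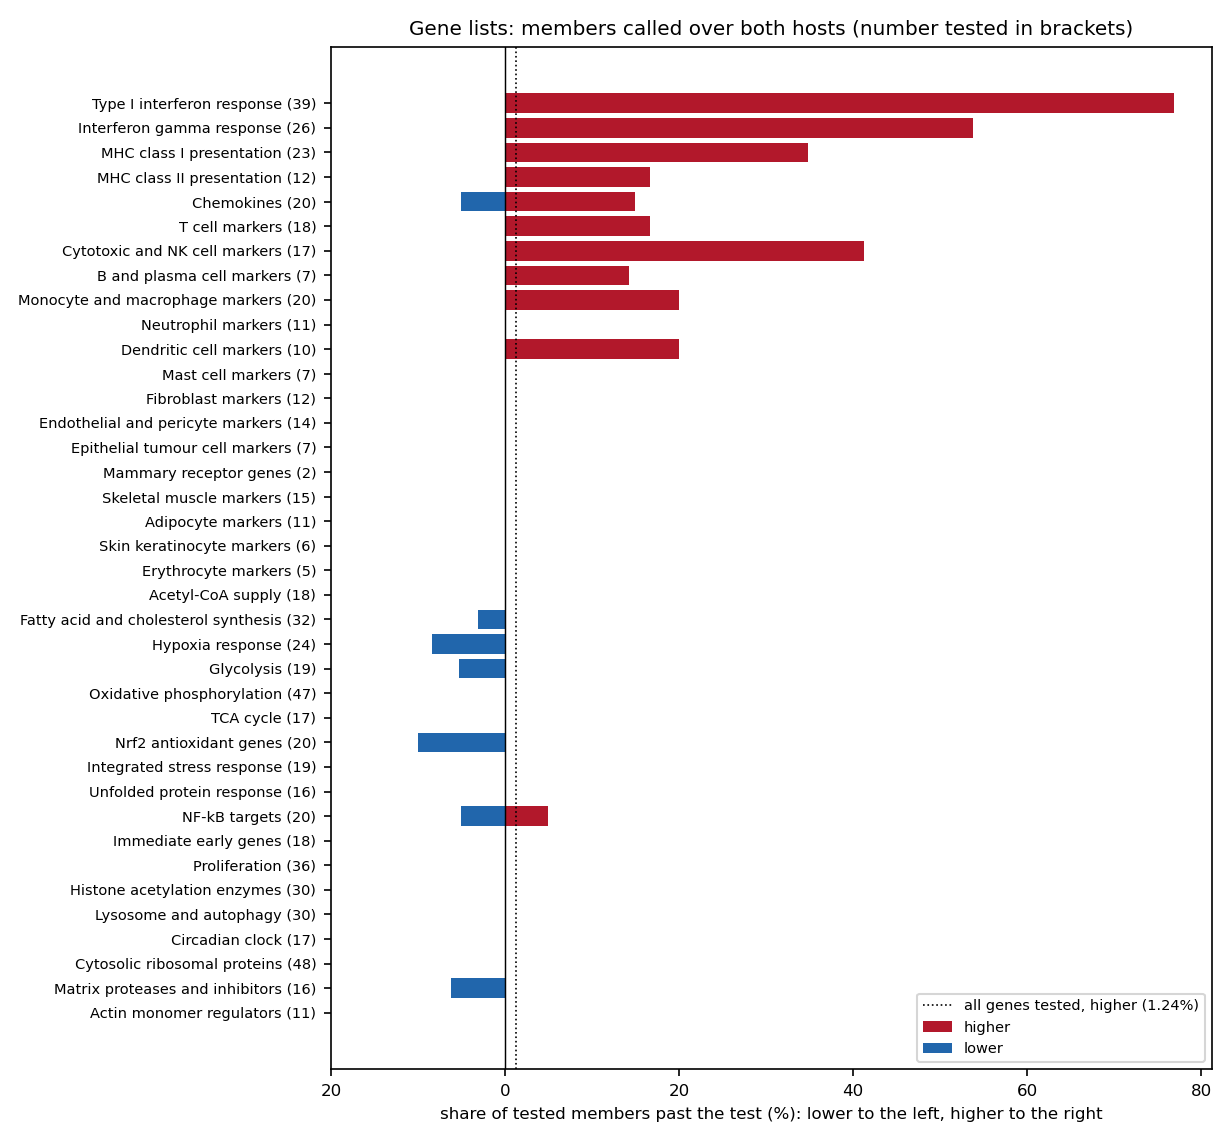
Share of the tested members of each of 38 gene lists that passed the pooled test (x axis, %), to the right for higher and to the left for lower with ACSS2i; the number tested is in parentheses and the dashed line is the share over all 17294 genes, 1.24%. Type I interferon genes have the longest bar (76.9%), followed by interferon gamma genes (53.8%), cytotoxic and NK cell markers (41.2%) and class I genes (34.8%). In NGS alone the cytotoxic list had a median difference of 0, and 9 and 12 of its 18 listed genes had 0 counts in vehicle and ACSS2i.

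The paired estimates from each host's own libraries, which share no sample, were positive in both hosts for 78 of the 88 tested genes of the interferon and class I lists (88.6%) and for 4389 of all 17294 genes (25.4%). The lists were chosen with earlier results of these data known, so these shares are a description and not a test. In NGS alone 13 genes were higher (0.0752%) and 6 lower (0.0347%), and in C57BI6 alone 199 were higher (1.15%) and 35 lower (0.202%). The medians of the type I list were 1.27 in NGS and 0.68 in C57BI6, and those of the class I list were 0.67 and 0.42. The difference between the hosts' effects did not pass for any gene of these lists. That edgeR test passed for 3 of 17294 genes (0.0173%). An unadjusted p under 0.05 was reached by 2383 genes in it, against 2496 genes in the pooled test. Few host differences passed after adjustment, a count that depended on the tool as given at the end, and the hosts were not shown to act alike. Among the 5355 genes whose mean log2 CPM reached 5, the median standard error was 0.185 in NGS alone, 0.0829 in C57BI6 alone and 0.0954 over both, so the pooled estimate followed C57BI6 more closely.

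**Figure D3:**
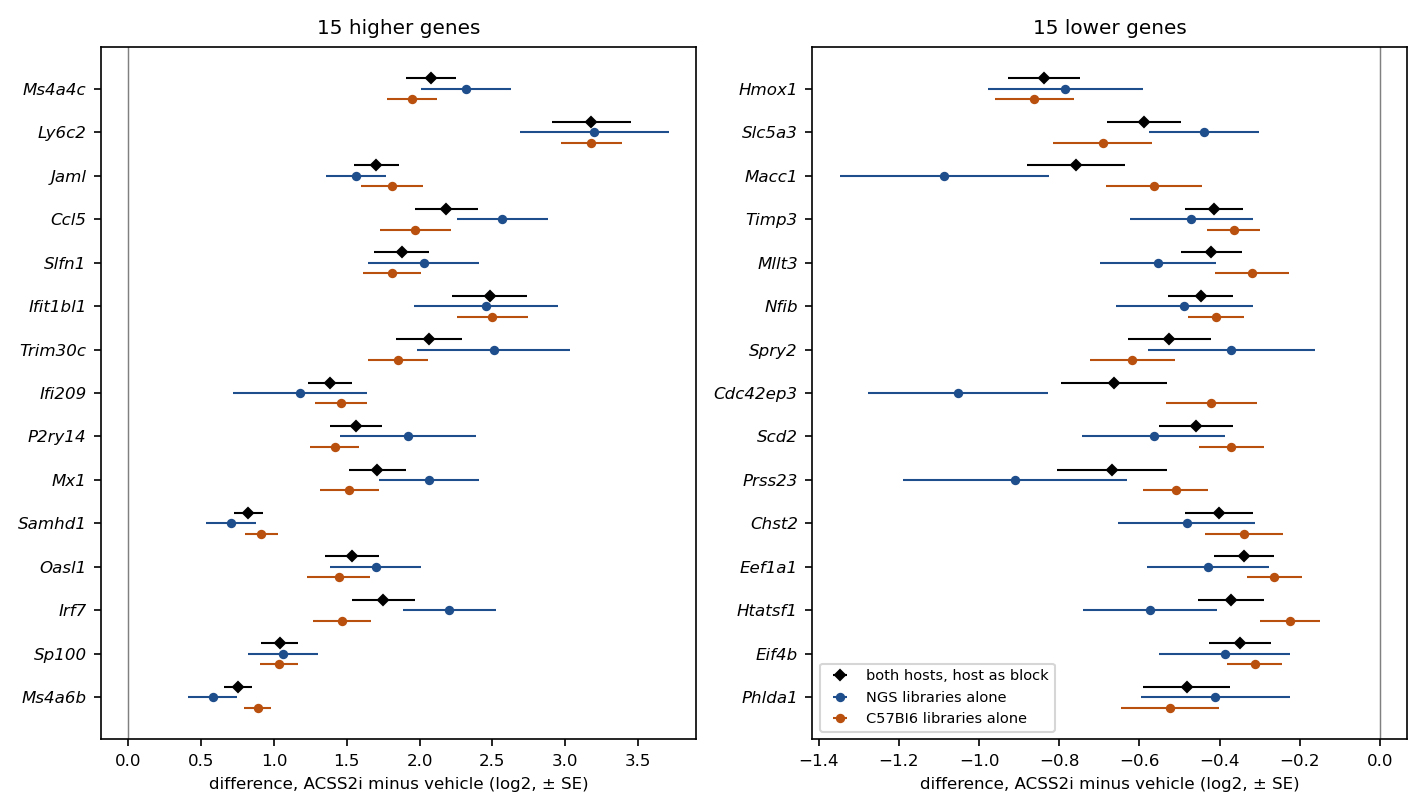
Difference between ACSS2i and vehicle (x axis, log2, whiskers are SE) for 15 genes in each direction (y axis). Estimates are from both hosts with host as a block and from each host alone. The genes are those of smallest p among called genes whose groups did not overlap within either host. Their mean log2 CPM was at least 1, and predicted genes and pseudogenes were left out. All 15 estimates on the left are above 0 and all 15 on the right below 0 in both hosts, as the choice of genes requires.

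Among annotated genes of mean log2 CPM of at least 1, leaving aside predicted genes and pseudogenes, pooling brought 71 past the test in the higher direction, and 26 in the lower, that passed in neither host alone. The 5 with the smallest p among the higher were Gbp2, Ptpn6, Gbp5, Ddx60 and Ifi47. Gbp2 stood at 18.6, 21.5 and 26.4 CPM against 38.8, 53.7 and 59.4 CPM in NGS and at 77.0, 42.9, 49.6 and 51.5 CPM against 77.6, 128.5, 98.2 and 109.9 CPM in C57BI6. Its groups did not overlap within a host, though C57BI6 vehicle 1 came close to the lowest treated library. Its adjusted p was 0.0974 in NGS alone, 0.0539 in C57BI6 alone and 0.00336 over both in edgeR. Ptpn6, a phosphatase of blood cells that restrains receptor signalling, rose by 0.59 ± 0.09, and the antiviral helicase gene Ddx60 rose by 1.04 ± 0.17. All 5 kept their call in each of the 14 fits that left out a library. The first 5 in the lower direction were Macc1, Mllt3, Cdc42ep3, Scd2 and Chst2, described with the lower genes. Pooling also lost calls. Of all 234 genes called in C57BI6 alone, 133 were called over both hosts, and of the 19 called in NGS alone, 11 were.

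**Figure D4:**
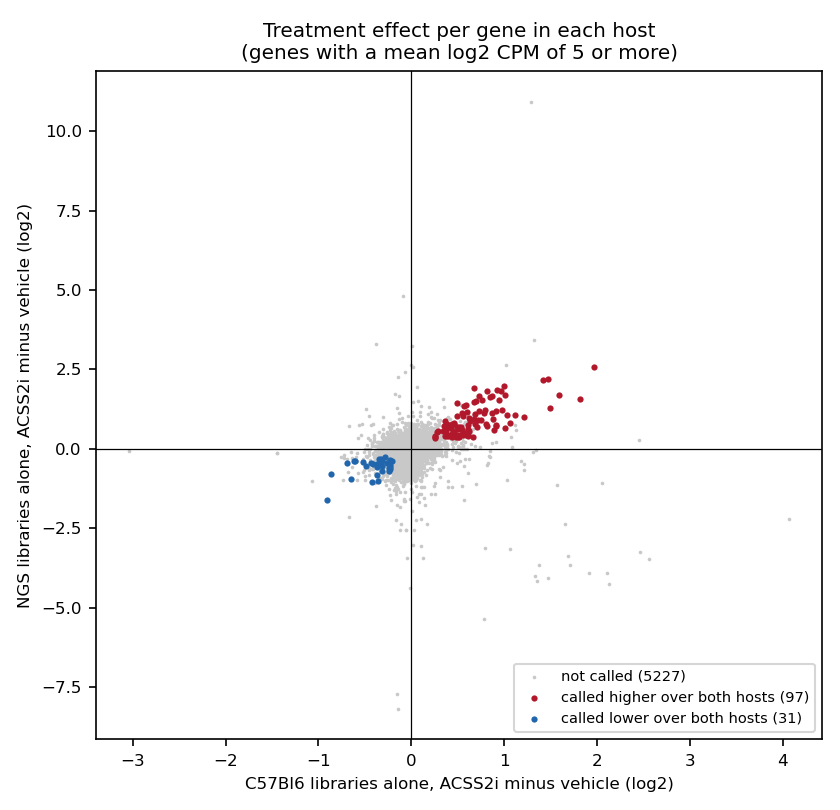
Difference between ACSS2i and vehicle (log2) in the C57BI6 libraries alone (x axis) and the NGS libraries alone (y axis) for genes whose mean log2 CPM reached 5; 97 genes called higher over both hosts are red, 31 called lower are blue and 5227 others grey. The coloured genes lie mostly in the upper right and lower left, where the pooled test selects them, and the grey cloud shows little relation between hosts (60.6% of all plotted genes have the same sign).

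Among genes whose ACSS2i libraries lay beyond every vehicle library in both hosts, 210 were higher (1.21%) and 115 lower (0.665%). Of the 214 genes that rose, 90 (42.1%) lay within 200 kb of another gene that rose, against 8.16% of all genes with a position, and 0 of the 39 genes that fell lay so close to another that fell (1.05% of all genes did). The largest group, on chromosome 1, held 7 genes that rose of 9 tested in its span, from the PYHIN family of DNA sensors, Ifi213, Ifi209, Ifi208, Ifi204, Mndal, Ifi211 and Ifi203, with differences of 0.52 to 1.58. All 4 tested genes of the Gbp group on chromosome 3 and all 3 of the Phf11 group on chromosome 14 rose, by 0.98 to 1.30 and 1.08 to 1.96. The Slfn group on chromosome 11 had 5 of 7 tested genes, the Oas group on chromosome 5 had 4 of 6, the Trim30 group on chromosome 7 had 4 of 8 and the Ms4a group on chromosome 19 had 3 of 7. Members of these families, and of the H2-Q and Ly6 families, are close copies of each other, so how the counting divided reads among them is uncertain.

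Of 17 tested members of the cytotoxic and NK cell list, 7 rose (41.2%, against 1.24% of all tested genes) and 0 fell. The 7 were Gzmb, Ctsw, Klrc1, Klrk1, Klrd1, Nkg7 and Xcl1. Without C57BI6 ACSS2i 2, 4 of the list rose. The granule protease gene Gzmb stood at 1.45, 1.79, 1.66 and 2.17 CPM in C57BI6 vehicle and at 6.84, 5.61, 12.5 and 7.68 CPM in C57BI6 ACSS2i, without overlap, and had 0 counts in all 6 NGS libraries, where 3 counts over a group correspond to 0.226 CPM in vehicle and 0.289 CPM in ACSS2i. The lectin receptor gene Klrc1 stood at 6.42, 3.53, 4.00 and 3.62 CPM against 11.4, 17.6, 13.7 and 14.8 CPM in C57BI6, and at 0.228 CPM or less in every NGS library. Klrc1 rose by 1.61 ± 0.29 over both hosts (edgeR adjusted p = 0.00965), lost its call without C57BI6 ACSS2i 2 (0.0511), and had a negative estimate under equal weights for the hosts (-1.11), which rests on those near-zero NGS counts.

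In NGS, the defining markers of T cells (Cd3e), NK cells (Ncr1) and B cells (Cd79a) had 0 counts in all 6 libraries, as did Foxp3 and Ctla4. In C57BI6, Cd3e had 57 counts over the vehicle libraries and 217 over the ACSS2i libraries, and Cd8a levels were 1.02 ± 0.34 and 3.09 ± 1.38 CPM (n = 4). Of 18 T cell markers, Cd3d, Cd28 and Ctla4 rose (16.7%, against 1.24% of all tested genes). The count of markers that rose was between 0 and 6 in the fits that left out a library. It was 0 without any 1 of C57BI6 vehicle 2, vehicle 3, vehicle 4, ACSS2i 1 or ACSS2i 2. The summed level of the T cell list was 21.7 to 44.5 CPM in C57BI6 vehicle and 62.4 to 141.6 CPM in C57BI6 ACSS2i, but 5.38 to 28.7 and 5.98 to 20.1 CPM in NGS, with overlap. The cytotoxic list summed to 27 to 42.1 CPM against 76.3 to 133.4 CPM in C57BI6, and to 2.92 to 3.65 CPM against 5.08 to 9.44 CPM in NGS. In NGS, 7 of the 18 listed T cell markers had 0 counts in vehicle and 7 in ACSS2i, and 9 and 12 of the 18 listed cytotoxic markers did. The lectin receptor gene Klrk1 also stood higher in NGS, at 0.809, 0 and 0 CPM in vehicle against 1.07, 1.65 and 4.83 CPM in ACSS2i. It did not pass in NGS alone (edgeR adjusted p = 0.355). In C57BI6 neither the cytotoxic nor the T cell sums overlapped, so there these markers rose along with the interferon genes. In NGS the cytotoxic sums did not overlap either but were at most 9.44 CPM, and both lists had a median difference of 0 in NGS alone. Klrk1 made up 4.83 of the 9.44 CPM in NGS ACSS2i 3 and 1.65 of the 5.27 CPM in NGS ACSS2i 2. The part of these markers in the interferon result was not tested.

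Of 20 tested markers of monocytes and macrophages, 4 rose (20%, against 1.24% of all tested genes) and 0 fell. These were Ly6c2, Ms4a4c, the antibody receptor Fcgr3 and its signalling chain Fcer1g, and the last pair rose by 0.47 ± 0.10 and 0.45 ± 0.10. The defining marker Csf1r, the receptor for macrophage colony-stimulating factor, differed by 0.23 and did not pass, as did Adgre1 (0.26), Cd68 (0.08) and Mrc1 (0.08). The summed level overlapped in both hosts (3516 to 4874 CPM in vehicle and 4452 to 5383 CPM in ACSS2i in C57BI6, 3140 to 4482 and 4434 to 4877 CPM in NGS). Leaving out any 1 of C57BI6 vehicle 2, vehicle 3, ACSS2i 2 or ACSS2i 4 left 2 of the 4 calls. Of 10 dendritic cell markers, the interferon-induced Bst2 and the lymph node homing receptor Ccr7 rose, by 0.91 ± 0.16 and 1.75 ± 0.42, and Ccr7 lost its call in 11 of 14 fits that left out a library. The plasma cell gene Mzb1 rose by 3.00 ± 0.63 from at most 0.629 CPM in any control library, to 5.21 CPM in C57BI6 ACSS2i 2, and lost its call in 5 of 14 such fits, the one without that library included. No neutrophil, mast cell, fibroblast, endothelial, adipocyte, skin, muscle or erythrocyte marker passed in either direction. Mast cell markers had a median of -1.03 (-2.29 in NGS alone, -0.24 in C57BI6 alone), with 0 of 7 pooled estimates positive. They summed to 101.2 to 215.7 CPM in NGS vehicle against 13.8 to 69.5 CPM in NGS ACSS2i, without overlap. In C57BI6 the sums overlapped, at 32.2 to 157.4 CPM in vehicle and 44.7 to 58.4 CPM in ACSS2i. Adipocyte markers had a median of 0.82, with 10 of 11 estimates positive, against 8222 of 17294 over all tested genes.

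**Figure D5:**
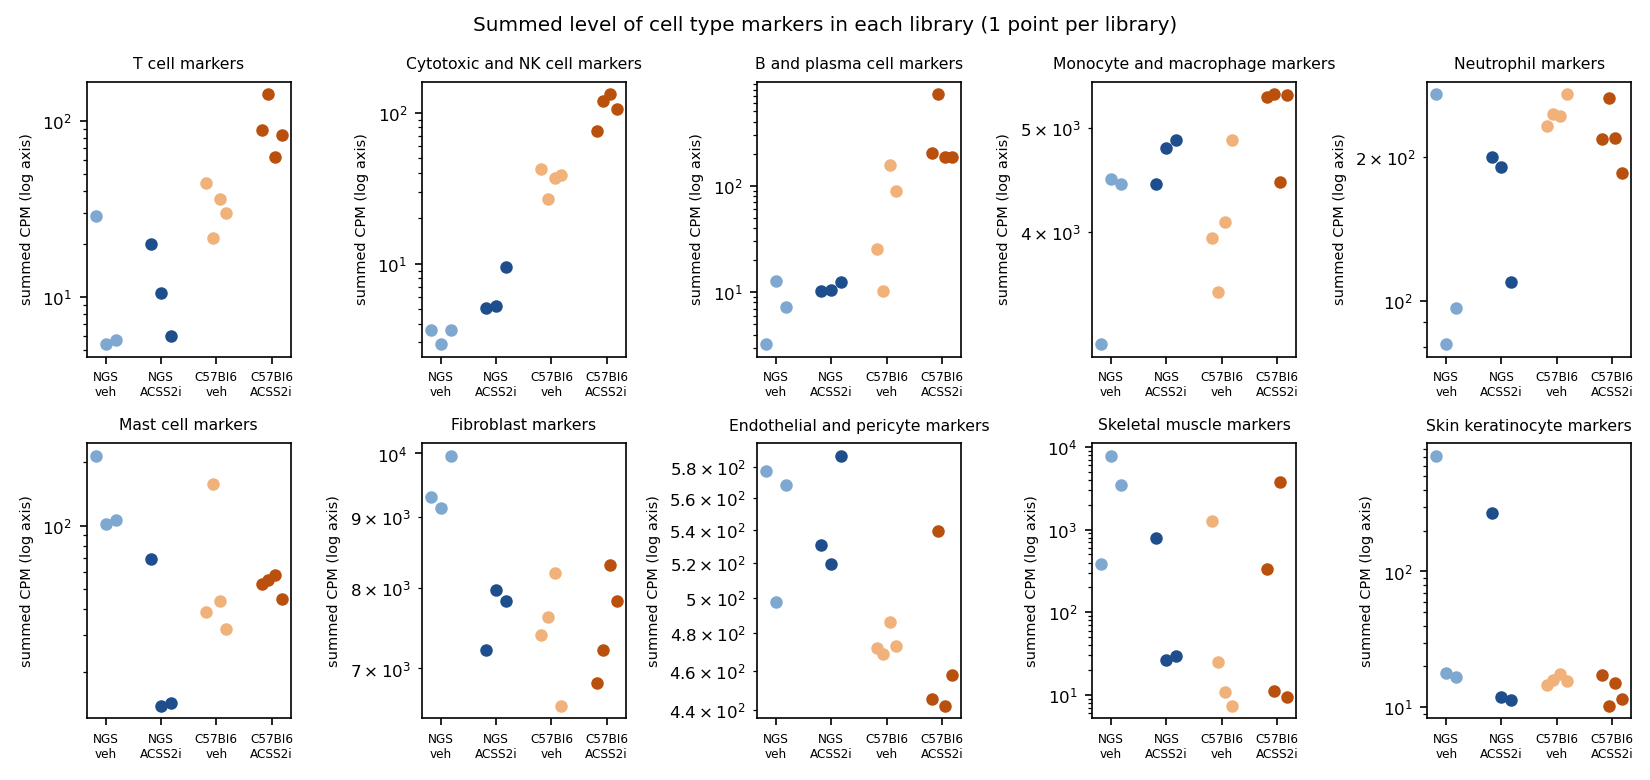
Summed CPM (y axis, log scale) of 10 lists of cell type markers in each library, by host and treatment (x axis); each point is 1 library. T cell and cytotoxic markers lie higher in treated C57BI6 libraries, monocyte and macrophage markers shift little, and muscle and skin markers are high in single libraries.

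Some libraries held high levels of skeletal muscle or skin markers, and the origin of this RNA was not tested. Skeletal muscle markers summed to over 1000 CPM in 4 libraries, NGS vehicle 2 and 3, C57BI6 vehicle 1 and C57BI6 ACSS2i 3, and ran from 7.36 CPM up to 785.2 CPM in the rest. Skin markers summed to 712.9 CPM in NGS vehicle 1 and 268.2 CPM in NGS ACSS2i 1. Without the 4 muscle-rich libraries, which leaves NGS vehicle with 1 library, 62 genes were higher and 13 lower. In that fit 4 type I interferon genes passed, with a list median of 0.82, and 9 interferon gamma genes passed, with a median of 1.10. The same fit left 4 class I genes, 2 T cell markers and 2 cytotoxic markers called higher. Without the 2 skin-rich libraries 238 were higher and 46 lower, and 30 type I genes passed. Of epithelial genes, by which a breast tumour can be checked, Krt8 was present at 175 to 395 CPM, while Epcam had 35, 3, 6 and 30 counts over NGS vehicle, NGS ACSS2i, C57BI6 vehicle and C57BI6 ACSS2i and was nearly absent.

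The lower genes moved by less than the higher ones. Hmox1 at chr8:75093621-75100589, which degrades haem, stood at 49.6, 37.5 and 43.8 CPM in NGS vehicle against 23, 27.7 and 25.3 CPM in NGS ACSS2i. In C57BI6 it stood at 42.1, 44.8, 52.7 and 43.9 CPM against 23.5, 28.6, 25.1 and 23 CPM. Every treated library lay below every control in both hosts, and Hmox1 fell by 0.84 ± 0.09 on the log2 scale (edgeR adjusted p = 0.000189), the smallest p of the genes that fell. Erythrocyte markers, whose haem Hmox1 acts on, had a median of -0.71 with 0 of 5 estimates positive and sums that overlapped within each host, and their part in the result was not tested. Hmox1 alone of the 15 lower genes kept its call without the 4 muscle-rich libraries.

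Slc5a3, which brings myo-inositol into the cell as an osmolyte, stood at 265.1, 280.9 and 276.9 CPM in NGS vehicle against 205.7, 187.1 and 213.6 CPM in NGS ACSS2i, and at 334.8, 396.1, 289 and 443.5 CPM against 234, 244.2, 208.1 and 215 CPM in C57BI6. The groups did not overlap within a host, and the gene fell by 0.59 ± 0.09 (edgeR adjusted p = 0.004). Macc1, a regulator of the MET receptor gene, went from 16.7 ± 0.74 to 7.87 ± 1.5 CPM in NGS (n = 3) and from 15.8 ± 1.40 to 10.6 ± 1.40 CPM in C57BI6 (n = 4), a fall of 0.76 ± 0.12. Timp3, an inhibitor of matrix metalloproteinases, stood at 1330, 1680 and 1240 CPM against 1012, 1083 and 972.2 CPM in NGS, and at 1703, 1791, 1882 and 1530 CPM against 1295, 1304, 1334 and 1398 CPM in C57BI6, a fall of 0.42 ± 0.07.

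Mllt3, which encodes a reader of acylated histone lysines, went from 96.4 ± 2.90 to 65.6 ± 2.11 CPM in NGS and from 92.2 ± 9.69 to 73.5 ± 5.77 CPM in C57BI6, and the transcription factor gene Nfib fell by 0.45 ± 0.08. These 6 genes kept their call in each of the 14 fits that left out a library. The other 9 did not: the signalling inhibitor Spry2 (-0.53), the Cdc42 effector Cdc42ep3 (-0.66), the desaturase Scd2 (-0.46), the protease Prss23 (-0.67), the sulfotransferase Chst2 (-0.40), the translation factors Eef1a1 (-0.34) and Eif4b (-0.35), Htatsf1 (-0.37) and Phlda1 (-0.48) lost theirs in 1 to 10 of those fits. Their highest adjusted p in those fits was between 0.0514 and 0.114.

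The gene of the inhibited enzyme did not differ detectably at this depth. Acss2 stood at 4.65, 1.80 and 3.19 CPM in NGS vehicle, 5.35, 3.30 and 1.84 CPM in NGS ACSS2i, 2.74, 3.02, 2.52 and 2.23 CPM in C57BI6 vehicle and 1.98, 2.58, 3.12 and 3.62 CPM in C57BI6 ACSS2i, with full overlap. Its difference was 0.10 ± 0.25 (edgeR adjusted p = 0.901). The mitochondrial relatives Acss1 and Acss3 differed by 0.62 ± 0.25 and -0.42 ± 0.40 and did not pass (0.276 and 0.674). An inhibitor acts on the protein, so these levels do not check the treatment labels. Of 18 genes of acetyl-CoA supply, 0 passed, with a median of -0.07, and the citrate lyase gene Acly was at -0.06.

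Of 32 genes of fatty acid and cholesterol synthesis, Scd2 fell (3.12%, against 0.226% of all tested genes) and the other 31 did not pass. The median was -0.16 and 25 estimates were at or below 0, while 8222 of 17294 were positive over all tested genes. Scd2, which introduces a double bond into saturated fatty acids, stood at 299.1, 345.1 and 244.1 CPM against 225.7, 167.1 and 207.6 CPM in NGS and at 272.7, 282.5, 273.6 and 235.3 CPM against 201.3, 184.3, 228.6 and 203.5 CPM in C57BI6. Its groups did not overlap, but the call was lost without C57BI6 vehicle 2 or without C57BI6 ACSS2i 2. Fasn, Acaca and Scd1 were at 0.00, 0.06 and -0.05.

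Of 24 hypoxia genes, the histone demethylase Kdm3a and the prolyl hydroxylase Egln3 fell, by 0.33 and 0.43. In this list 22 estimates were negative, with a median of -0.32 (-0.66 in NGS, -0.13 in C57BI6). Over all tested genes, 8222 of 17294 estimates were positive. At most 1 of the list was called lower in any fit that left out a library. Of 19 glycolysis genes, Eno1 fell by 0.49 ± 0.11 and 17 estimates were negative. The Eno1 call was lost in 9 of those 14 fits and without the skin-rich libraries, which left 0 calls in the list, while Ldha (-0.33) and Pgk1 (-0.39) did not pass. Of 20 antioxidant genes controlled by Nrf2, Hmox1 and the malic enzyme Me1 fell, but Me1 lost its call in 13 of the 14 fits that left out a library, and Nqo1 and Gclc, at -0.72 and -0.32, did not pass. These 3 lists had 1 or 2 genes called lower each (8.33%, 5.26% and 10%, against 0.226% of all tested genes). Of those calls only that of Hmox1 was kept in every fit that left out a library.

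No gene passed in the lists of oxidative phosphorylation (47 tested, median -0.08), the TCA cycle (17, -0.20), the enzymes of histone acetylation (30, 0.01), proliferation (36, 0.14), the integrated stress response (19, -0.09), immediate early genes (18, -0.18) or cytosolic ribosomal proteins (48, -0.11). In the proliferation list 29 of 36 estimates were positive, against 8222 of 17294 over all tested genes, with Mki67 at 0.13 and Top2a at 0.31. The clock list also had no call among 17 tested genes, and Arntl, the gene of Bmal1, was at -0.12. Among 20 targets of NF-kB, Nfkbie rose by 0.62 ± 0.11, Cxcl2 fell as given above, and Il6 and Tnf, at -0.73 and -0.33, did not pass.

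The count of genes that passed depended on single libraries and on the tool. Without the host term 26 genes were higher and 3 lower. Leaving out C57BI6 ACSS2i 2 gave 136 higher and 10 lower genes, the lowest counts of any left-out library. The lower count was between 12 and 22 without any 1 of NGS vehicle 1, 2 or 3, NGS ACSS2i 3, C57BI6 vehicle 1, 2 or 3, or C57BI6 ACSS2i 1 or 4. The DESeq2 test called 491 higher and 204 lower, so 70.6% of its calls were higher against 84.6% in edgeR, and limma voom with quality weights called 403 and 151 (72.7% higher). Equal weight for both hosts gave 321 and 210 (60.5% higher).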

How the data were processed

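Bulk tumour RNA was measured in 14 libraries made with a kit that reads the 3' ends of polyadenylated RNA, per the labels' protocols. The authors deposited whole-number counts per gene for 51789 genes. Per the submitters' processing notes the tools included RSEM 1.2.3 and DESeq2 with build mm10, with no role stated, so the counts may be rounded RSEM estimates; for the aligner and filters the sources used here gave nothing. Symbols and positions came from GENCODE M21, which matched 51596 genes and left 193 without a symbol. Among the matched genes, 0 were mitochondrially encoded.

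Counts were used as deposited. Genes were kept by filterByExpr over the 4 groups (17294 genes), given TMM scaling factors and put through the edgeR 4.0.16 quasi-likelihood test in R 4.3.3, two-sided, with Benjamini-Hochberg adjustment over all tested genes and a threshold of 0.05. The model was host plus treatment, without a replicate block (common biological coefficient of variation 0.254). The interaction (C57BI6 minus NGS) was tested in the same libraries, and each host was also fitted alone on the same genes (0.285 in NGS, 0.211 in C57BI6). The chi-square per degree of freedom between libraries of a group ran from 6.62 to 25.4, so none was counted as a duplicate. Floors of 3 counts over a group were 0.226 and 0.289 CPM in NGS vehicle and ACSS2i, and 0.0403 and 0.0387 CPM in C57BI6; with no molecular identifiers described, they cover counting error only.

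The 38 gene lists (759 entries, 720 tested) and the genes named were chosen with earlier results of these data known. The lists are described by counts and medians without a test of their own. Some members, lymphocyte markers above all, may have passed the filter on low counts through the treated C57BI6 libraries alone. Named genes were up to 15 per direction with the smallest p among called genes of mean log2 CPM of at least 1 whose groups did not overlap within either host, without predicted genes and pseudogenes (129 and 22 genes qualified), Acss1, Acss2 and Acss3, up to 4 members per list and up to 5 per direction called only in the pooled test. The list members given beyond these, such as Irf9 or B2m, were chosen after their values were seen. Some items are not reported here. Promoters came from RefSeq (GRCm38.p6), 250 bases before to 50 after the start. Alternatives were other size factors, the DESeq2 1.42.0 test, limma 3.58.1 voom with quality weights, other filters, a replicate block, thinned C57BI6 counts, equal host weights, no host term, each host alone, each library left out and, chosen after seeing the data, the omission of muscle-rich or skin-rich libraries. The pipeline was tested on simulated data.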

Additional observations from a re-analysis of the deposited data

Results flagged for a closer look

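The difference between the hosts' treatment effects passed the edgeR interaction test for 3 genes, each lower with ACSS2i in NGS alone. Pfn2, an actin-binding profilin, stood at 14.6, 18.6 and 13.7 CPM in NGS vehicle against 3.48, 4.61 and 4.83 CPM in NGS ACSS2i, and at 3.03 to 4.58 CPM against 4.17 to 5.46 CPM in C57BI6, a host difference of 2.07 ± 0.30 (adjusted p = 0.0394). Serpinb1a, a protease inhibitor of leukocytes, stood at 40.3, 42.0 and 40.3 CPM against 17.1, 11.5 and 13.3 CPM in NGS and at 17.1 to 22.6 CPM against 18.6 to 34.4 CPM in C57BI6, a host difference of 1.91 ± 0.28 (adjusted p = 0.0394). The processed pseudogene Amd-ps3 stood at 92.1, 104 and 46.5 CPM in NGS vehicle and at 0, 0 and 0.921 CPM in NGS ACSS2i, and between 52.4 and 111 CPM in C57BI6. Its fitted host difference of 7.62 rests on near-zero counts and depends on the prior count, and reads of its parent gene may be shared with it.

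In 4 of 140 tested groups of 4 libraries, 1 library stood far from the rest, and chance gives about 1 in 20. C57BI6 ACSS2i 2 was high for Samhd1 (234 CPM, others 184 to 191) and for Psmb8 (149 CPM, others 119 to 122). C57BI6 vehicle 1 was high for Klrc1 (6.42 CPM, others 3.52 to 4), and C57BI6 vehicle 2 was low for Acss3 (1.45 CPM, others 2 to 2.07).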

How the results depend on the processing

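With the reported 214 higher and 39 lower genes, other settings gave, in that order, 491 and 204 (DESeq2 test), 403 and 151 (voom), 192 and 21 (C57BI6 thinned to the NGS depth), 321 and 210 (equal host weights), 26 and 3 (no host term), 13 and 6 (NGS alone) and 62 and 13 (without muscle-rich libraries). Leaving out 1 library gave 136 to 259 higher and 10 to 58 lower. The interaction, 3 and 0, gave 133 and 150 (DESeq2), 0 and 0 (voom), 6 and 1 (no filter), 20 and 14 (without skin-rich libraries) and 1 to 45 and 0 to 17 (1 library left out, the highest without NGS ACSS2i 1). NGS alone, 13 and 6, gave 139 and 124 (DESeq2), 0 and 0 (voom), 163 and 200 (no filter) and 0 to 83 and 1 to 81 (1 library left out). C57BI6 alone, 199 and 35, gave 520 and 221 (DESeq2), 287 and 53 (no filter) and 54 to 155 and 6 to 32 (1 library left out). The cause of these shifts was not tested.

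Replicate numbers did not pair the treatments: libraries of equal number correlated at -0.137 to 0.155, others at -0.268 to 0.349, and 3 of 7 treated libraries correlated best with their own number. With a replicate block 127 genes were higher and 13 lower over both hosts, 55 and 51 in NGS alone, 38 and 3 in C57BI6 alone, and 2 and 2 in the interaction.

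Of 64 named called genes, 39 kept their call in every fit that left out a library. Over 1800 values of named genes in other settings, 5 changed sign: Klrc1 with equal host weights (-1.11) and in NGS alone (-2.56), Cxcl2 in NGS alone (0.138), and Acss2 without NGS ACSS2i 1 (-0.0346, in a range up to 0.215 over the libraries left out) and without muscle-rich libraries (-0.0597). Depth limits NGS, where a group with 0 counts allows up to 0.289 CPM.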
